A study of Mus musculus with 12 samples.

Results

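The keratin pair Krt8 and Krt18, with the related Krt19, was followed through oocyte growth and maturation in WT and Zar1/2-null (Zar1/2-/-) mice. The members were 3 of the 23230 genes in the deposited table, selected on measured values: Krt8 had been seen at a higher level in the mutant growing and GV oocytes, and the question was whether Krt18 followed it. Of the 3 members, 1 (Krt8) reached 1 FPKM (read fragments scaled to transcript length and library size) in any library, the level required to enter the test across genes. Both genotypes were on a C57BL6/ICR hybrid background, and the mutant carried null alleles of Zar1 and Zar2, made by genome editing. Growing oocytes came from females aged 13.5 days by the sample labels (12 days by the study's methods), GV oocytes (fully grown, arrested with an intact nucleus) from 21-day-old females 44 h after PMSG, and MII oocytes (ovulated eggs) 16 h after hCG. Each of the 6 groups had 2 Smart-seq2 libraries, each made from 10 lysed oocytes with ERCC spike-in RNA, and the authors' values had been scaled by the share of spike-in reads.

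Keratins are the intermediate filament proteins of epithelial cells. Their filaments are obligate heteropolymers in which a type II keratin pairs with a type I keratin, and an unpaired keratin is normally degraded. Krt8 (type II) and Krt18 (type I) are the usual pair of simple epithelia and are among the first keratins made in the mouse embryo, in the trophectoderm. Krt19 is another type I keratin of simple epithelia that can also pair with Krt8. ZAR1 and ZAR2 are oocyte proteins that bind maternal mRNAs.

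In the mm9 annotation Krt8 lay on the minus strand at chr15:101827142-101834773 and Krt18 on the plus strand at chr15:101858647-101862457. The genes pointed away from each other, with starts 23.9 kb apart. Krt8 had 9 exons and an mRNA of 1805 bases, and Krt18 had 7 exons and 1400 bases. Krt19 stood apart at chr11:100002124-100009979 with 6 exons. The 250 bases before each start are shown for the pair, and for Krt73, a type II keratin of the same cluster described with them. They were taken from RefSeq (GRCm38.p6), in which these windows are chr15:102004343-102004592 (minus strand), chr15:102027966-102028215 (plus strand) and chr15:101802361-101802610 (minus strand). Capitals mark TATAAA.
Krt8: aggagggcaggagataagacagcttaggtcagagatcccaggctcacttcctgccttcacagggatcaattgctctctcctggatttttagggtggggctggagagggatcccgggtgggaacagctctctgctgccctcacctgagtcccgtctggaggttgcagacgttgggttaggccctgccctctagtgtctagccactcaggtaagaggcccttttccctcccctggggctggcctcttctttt
Krt18: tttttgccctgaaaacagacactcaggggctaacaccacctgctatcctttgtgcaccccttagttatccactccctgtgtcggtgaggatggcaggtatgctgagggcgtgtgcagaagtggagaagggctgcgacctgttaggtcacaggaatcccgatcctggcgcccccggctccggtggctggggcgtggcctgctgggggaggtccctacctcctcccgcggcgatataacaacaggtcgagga
Krt73: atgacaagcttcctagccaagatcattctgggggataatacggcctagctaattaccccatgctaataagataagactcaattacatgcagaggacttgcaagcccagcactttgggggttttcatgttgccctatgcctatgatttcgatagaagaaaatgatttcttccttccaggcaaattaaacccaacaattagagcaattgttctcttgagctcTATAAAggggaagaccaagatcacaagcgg
TATAAA, searched on both strands, stood in the Krt73 window only, 30 bases before the RefSeq start, and in 12.4% of all 32851 promoter windows of this length. The GC box GGGCGG was in none of these windows and in 32.7% of all. The AP-1 site TGANTCA was likewise in none of them and in 6.75% of all. The GC content was 58% for Krt8, 60.4% for Krt18 and 42.4% for Krt73, with a median of 52.4% over all windows. The windows of Krt8 and Krt18 ended at the start annotated in mm9, and the RefSeq start of Krt73 lay 17 bases upstream of its mm9 start. No Krt19 promoter was matched.

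The Krt8 mRNA has a near-identical copy elsewhere in the genome, which bears on its measured level. Of the 1756 stretches of 50 bases in this mRNA, the length to which the authors trimmed the reads, 957 (54.5%) also occurred exactly at chr7:24142113-24143830 in mm9. The copy lay in an intron of Nlrp4e, an oocyte gene, in the direction of its transcription, and overlapped none of its exons. It had no row of its own in the table. For 4 of the 8 exon junctions of Krt8 the 50 bases across the junction stood ungapped in the copy. The junction of exons 1 and 2 is shown, with the last 25 bases of exon 1 in capitals; the copy holds it at chr7:24142461-24142510.
Krt8 exon junction: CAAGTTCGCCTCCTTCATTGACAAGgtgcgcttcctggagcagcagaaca
Because only uniquely mapped reads were used, a read from such a stretch could be dropped or placed at the copy. The remaining 799 stretches of Krt8 were found only at or across its own exons. In Krt18, 0.740% of stretches occurred elsewhere, in Krt19 none of 1527, and in Krt73 1.13%, at Krt71 and Krt74.

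The labels were checked first against the targeted genes. Zar1l, the row for Zar2, was at 639 and 644 FPKM in WT growing oocytes and at 17.5 and 13.2 in Zar1/2-null growing oocytes. Zar1 RNA remained present in the mutant, at 407 and 460 FPKM in growing oocytes against 603 and 725 in WT. All 14 oocyte markers were above 1 FPKM, with a summed level of 21925 to 25187 FPKM in the growing libraries. Since each library pooled 10 oocytes, fewer oocytes with a transcript and less of it per oocyte cannot be told apart. The study reports that ovulated mutant oocytes were arrested in metaphase or telophase of meiosis I. For the mutant the MII label therefore gives the time of collection, not a meiotic stage shared with WT. Genotype differences at MII, and between genotypes in the change from GV to MII, compare oocytes that can differ in stage. The part of meiotic stage in them was not tested. Nothing in the labels says that the 2 libraries of a group came from separate animals, so p-values measure only the spread between these libraries.

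Krt8 was low in WT oocytes and much higher in Zar1/2-null growing oocytes. In growing oocytes its level was 3.84 and 3.59 FPKM in the WT libraries and 72.8 and 87.98 in the Zar1/2-null libraries. Both mutant libraries were far above both WT libraries, with means of 80.4 ± 10.7 and 3.71 ± 0.176 FPKM (SD, n = 2 each), a 21.7-fold ratio. That placed Krt8 above 87.6% and 90.4% of the 11502 kept genes in the mutant libraries, and above 33.9% and 32.1% in WT. At the GV stage the WT libraries held 2.12 and 0.731 FPKM and the Zar1/2-null libraries 7.04 and 15.1. The ranges again did not overlap, and the ratio of means was 7.75-fold (11.04 ± 5.67 against 1.42 ± 0.980). This ratio was 15.1 without WT GV replicate 1, 5.22 without WT GV replicate 2 and 4.94 without Zar1/2-null GV replicate 2. These 2 contrasts selected Krt8, so their values are given as a description without a test. Of all kept genes, 22.4% in growing and 6.79% in GV oocytes had both Zar1/2-null libraries above both WT libraries. A more than 3-fold rise of the means, each set to at least 1 FPKM, was seen for 0.982% and 0.461%.

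At MII, a stage not used to select it, Krt8 was low, and in WT near the limit of what the table resolves. The WT libraries held 0.0547 and 0.0974 FPKM and the Zar1/2-null libraries 1.08 and 0.667. Without the spike-in scaling these values were 0.243 and 0.428 in WT and 3.82 and 2.64 in the mutant. Both mutant libraries were above both WT libraries, as for 43.5% of all kept genes. The difference was 0.79 ± 0.31 (SE) on the log2(FPKM + 1) scale and missed the threshold of 0.05 (limma, Benjamini-Hochberg adjusted p = 0.0798). It passed without the spike-in scaling (1.65, limma adjusted p = 0.0012) and with a pseudocount of 0.1 FPKM (2.45, limma adjusted p = 0.000654).

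Ordered by mean level, Krt8 ran from Zar1/2-null growing (80.4 FPKM) through Zar1/2-null GV (11.04), WT growing (3.71), WT GV (1.42) and Zar1/2-null MII (0.874) to WT MII (0.0760). Adjacent groups in this order did not overlap, except WT GV and Zar1/2-null MII. From growing to GV the mean was 7.28-fold lower in the mutant and 2.61-fold lower in WT; without the spike-in scaling these ratios were 5.06 and 2.07. From GV to MII it was 12.6-fold lower in the mutant and 18.7-fold lower in WT, or 6.03 and 5.34 without the scaling.

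**Figure D1:**
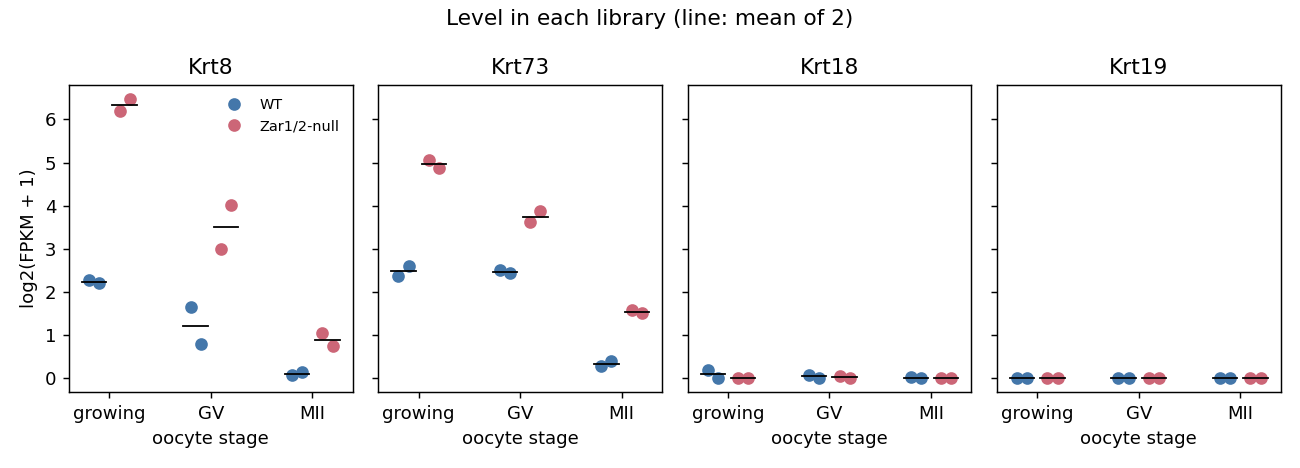
Level of Krt8, Krt73, Krt18 and Krt19 in each library as log2(FPKM + 1), by oocyte stage, with WT in blue and Zar1/2-null in red; points are libraries and the line is the mean of the 2 log2 values. Krt8 and Krt73 lie higher in the Zar1/2-null libraries at each stage, while Krt18 stays below 0.149 FPKM and Krt19 is listed at 0 throughout.

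Krt18, the type I partner, did not follow Krt8. It was listed at 0 in both Zar1/2-null growing libraries, those with the most Krt8. It was above 0 in 4 of the 12 libraries, namely WT growing replicate 1 (0.149 FPKM), WT GV replicate 1 (0.0616), Zar1/2-null GV replicate 1 (0.0388) and WT MII replicate 1 (0.0183). All 4 were replicate 1 of their group, and 3 of them were WT. In these libraries Krt8 exceeded Krt18 by 25.8-, 34.4-, 182- and 2.99-fold. The mean genotype difference of Krt18 over the 3 stages was -0.043 on the log2(FPKM + 1) scale. An exact two-sided permutation test within stages did not separate it from 0 (p = 0.333, over 216 arrangements). For values without ties the smallest p of this test would be 0.00926. Krt18 was at 0 in 8 of the 12 libraries, so many arrangements tied and the smallest p it could reach was larger. The test therefore could not decide whether Krt18 differed. At levels this low a difference was not detectable, and a value of exactly 0 can be a failed estimate, so the absence of Krt18 RNA is not shown. Over the whole table, 18.5% of genes were listed at 0 in every library and 50.5% never reached 1 FPKM.

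Krt19, the other candidate type I partner, was listed at 0 in all 12 libraries. Krt20 and Krt23, the remaining simple epithelial type I keratins listed, reached at most 0.512 and 0.221 FPKM. Krt7, the type II keratin that accompanies Krt8 in many ducts, reached at most 0.219 FPKM. Thus Krt8 was the one simple epithelial keratin of either type above 1 FPKM in these libraries.

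The whole keratin family was then examined for other possible partners. Of 51 keratins in the table (23 type II and 28 type I), 9 reached 1 FPKM in a library, 30 were above 0 but below 1 FPKM throughout, and 12 were listed at 0 in every library. Those that reached it were the type II keratins Krt8, Krt73, Krt76, Krt79 and Krt84 and the type I keratins Krt10, Krt12, Krt25 and Krt36. Most of them are known from hair follicle, cornea or stratified epithelium.

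Among them Krt73, a keratin of the inner root sheath of the hair, came closest to Krt8. In growing oocytes Krt73 was at 4.20 and 5.10 FPKM in WT and at 32.3 and 28.3 in Zar1/2-null libraries. At GV it was at 4.69 and 4.41 against 11.2 and 13.6, and at MII at 0.225 and 0.311 against 1.98 and 1.85. The mutant libraries were above WT at all 3 stages without overlap. The log2 differences of Krt73 were 2.47 ± 0.14 in growing, 1.27 ± 0.14 in GV and 1.20 ± 0.14 in MII oocytes (limma, Benjamini-Hochberg adjusted p = 2.3e-06, 9.3e-05 and 6.3e-05). Without the spike-in scaling, and with median scaling, Krt73 was again higher at each stage.

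The type I keratins moved otherwise. Krt12, a keratin of the cornea, was the most abundant type I keratin, with 67.6 to 82.2% of the type I sum. In growing oocytes it fell from 36.6 and 38.9 FPKM in WT to 23.3 and 17.3 in the mutant (log2 difference -0.88, limma adjusted p = 0.00663), a call lost without Zar1/2-null growing replicate 2 (-0.67, limma adjusted p = 0.0727). At MII it was higher, at 29.1 and 20.8 FPKM against 4.36 and 4.09 (log2 difference 2.29, limma adjusted p = 5.0e-06). Krt10, of the upper epidermis, was higher in the mutant at MII (0.97, limma adjusted p = 0.00736). Krt25, of the hair root sheath, was higher at GV (0.74, limma adjusted p = 0.0228) and MII (0.99, limma adjusted p = 0.00598). The calls of Krt10 and Krt25 were each lost without Zar1/2-null MII replicate 1 (0.63 and 0.81 at MII), and that of Krt10 also without WT MII replicate 2 (0.90). The GV call of Krt25 was lost without any of 3 libraries: WT GV replicate 1, WT GV replicate 2 or Zar1/2-null GV replicate 2 (0.60 to 0.82). Krt36 passed at no stage.

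The other type II keratins went down before ovulation where they changed. Krt76, of the palate and oral epithelium, fell by 1.09 in growing and 1.16 in GV oocytes on the log2 scale (limma adjusted p = 0.000881 and 0.000561). Krt79 fell by 0.90 in growing oocytes (limma adjusted p = 0.0104) and Krt84, a hair and tongue keratin, by 0.54 at GV (limma adjusted p = 0.0172). The Krt84 call was lost without the spike-in scaling (-0.15) and without WT GV replicate 1 (-0.40) or Zar1/2-null GV replicate 1 (-0.45). The Krt79 call was lost without the scaling (-0.79) and without WT growing replicate 2 (-0.80) or Zar1/2-null growing replicate 1 (-0.58).

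Of the 8 keratins other than Krt8, limma called 1 higher and 3 lower in growing oocytes, 2 higher and 2 lower at GV, and 4 higher and 0 lower at MII. The corresponding shares of all 11502 kept genes were 10.6% higher and 24.4% lower, 2.83% and 40.6%, and 21.5% and 10.3%. This balance depended on the scaling. Of all kept genes, limma called 1224 higher and 2801 lower in growing, 325 and 4666 in GV, and 2472 and 1183 in MII oocytes as deposited. Without the spike-in scaling it called 1711 and 1412, 827 and 1554, and 2831 and 2694. With median scaling the counts were 1211 and 1482, 1093 and 1071, and 2726 and 3453. No keratin was lower at MII at an unadjusted limma p under 0.05 either. The median log2 difference of these 8 was -0.35, -0.14 and 0.67 at the 3 stages, beside -0.16, -0.38 and 0.06 for all kept genes.

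**Figure D2:**
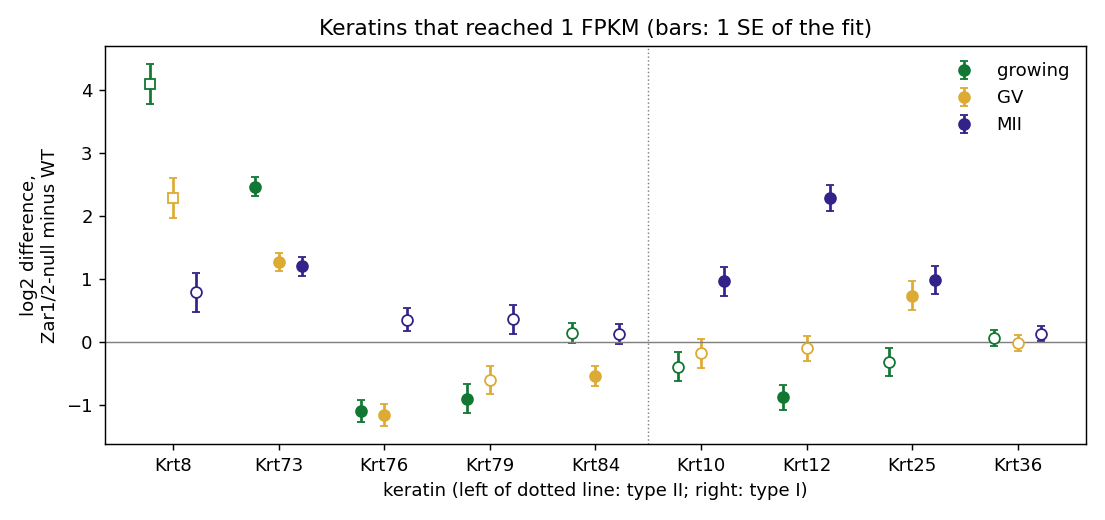
Log2 difference (Zar1/2-null minus WT, log2(FPKM + 1) scale) of the 9 keratins that reached 1 FPKM, by stage, with type II left and type I right of the dotted line; bars are 1 SE of the limma fit, filled circles passed an adjusted p of 0.05, open circles did not, and squares are the untested contrasts that selected Krt8. Krt8 and Krt73 lie above 0 at each stage, and Krt12 lies below 0 in growing and above 0 in MII oocytes.

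Because pairing is between the types, their sums were set side by side. In WT growing oocytes the type II sum was 25.7 and 25.9 FPKM and the type I sum 48.04 and 49.03, a type II to type I ratio of 0.536 and 0.529. In Zar1/2-null growing oocytes the type II sum was 120 and 131 FPKM and the type I sum 33.0 and 24.5, a ratio of 3.64 and 5.34. Krt8 made up 60.7% and 67.2% of the type II sum there, against 14.9% and 13.8% in WT. Without Krt8 the type II sum was 47.2 and 42.9 FPKM in the mutant libraries, still above type I. It was 21.9 and 22.4 in WT growing libraries. The 2 Zar1/2-null growing libraries were the only ones of the 12 in which type II RNA exceeded type I RNA. At GV the ratio was 0.421 and 0.395 in WT and 0.478 and 0.915 in the mutant. By MII the order had turned, with 0.687 and 0.930 in WT and 0.243 and 0.328 in the mutant, where Krt12 was 80.1% and 82.2% of type I. Krt8 is part of the full type II sums, so all of these sums are a description without a test. A ratio within a library does not depend on the spike-in scaling.

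**Figure D3:**
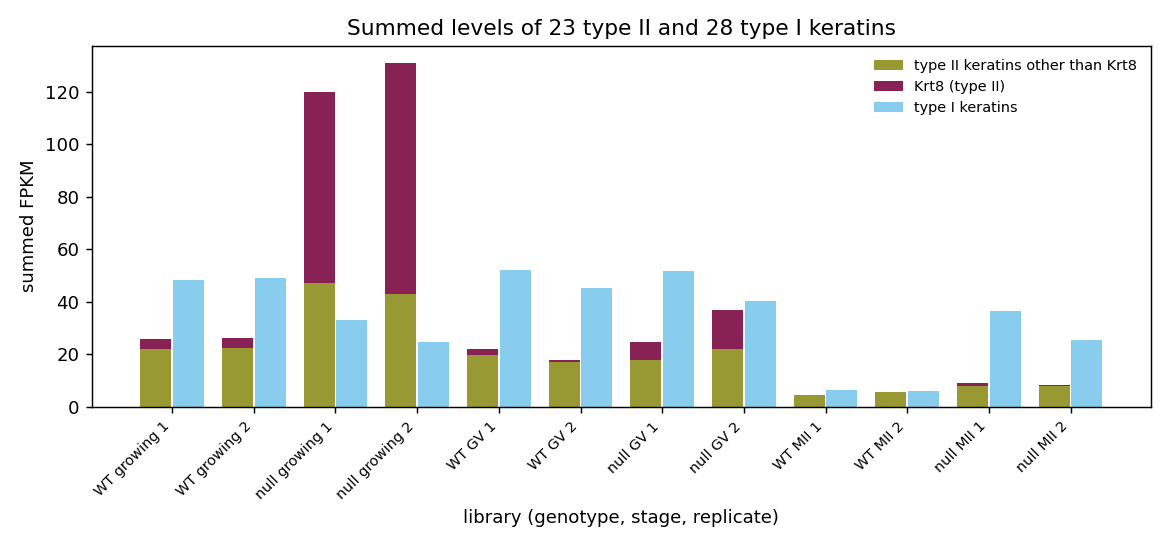
Summed FPKM of the 23 type II keratins (left bar of each pair, with Krt8 stacked on the others) and of the 28 type I keratins (right bar) in each of the 12 libraries, named by genotype, stage and replicate. In the 2 Zar1/2-null growing libraries the type II bar reaches 120 and 131 FPKM with Krt8, and 47.2 and 42.9 without it. Both are above type I bars of 33.0 and 24.5.

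The neighbours of Krt8 on chromosome 15 were compared with it, in a window of 300 kb on each side of its start chosen after the values were seen. The window held 24 other genes of the table, of which 13 were kept. In growing oocytes 1 of these (Krt73, 202 kb away) was called higher and 4 lower; at GV 1 was higher (Krt73 again) and 8 lower; at MII 3 were higher and 1 lower. The shares of all kept genes called in each direction were 10.6% and 24.4%, 2.83% and 40.6%, and 21.5% and 10.3%. Eif4b, a translation initiation factor gene and the nearest kept gene beyond Krt18, was lower at all 3 stages (log2 differences -0.50, -0.89 and -0.80, limma adjusted p = 0.033, 0.00137 and 0.00248). These Eif4b calls are on spike-in-scaled values only. In growing oocytes the scaling factors were 1 and 1 in WT and 0.862 and 0.779 in the mutant. Between Krt73 and Krt8, Krt2, Krt1 and Krt4 were listed at 0 in every library, and Krt76 was lower in growing and GV oocytes as given above.

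**Figure D4:**
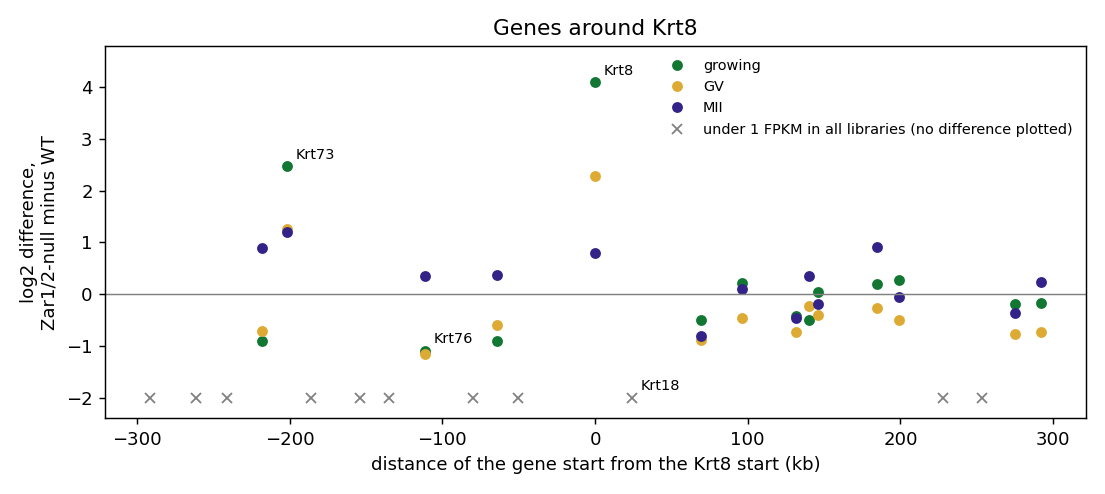
Log2 difference (Zar1/2-null minus WT) of the kept genes within 300 kb of the Krt8 start, by distance between gene starts in kb, with 1 colour per stage; crosses mark genes under 1 FPKM in every library, plotted at an arbitrary height with no difference. Krt8 and Krt73 stand above the rest in growing oocytes, and Krt18, 23.9 kb from Krt8, is among the crosses.

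Nlrp4e, the host of the Krt8 copy on chromosome 7, moved in the other direction from Krt8. It was at 114 and 111 FPKM in WT growing and 52.4 and 51.6 in Zar1/2-null growing libraries, and at 113 and 91.1 against 65.5 and 64.6 at GV. Its log2 differences were -1.10, -0.63 and -0.42 at growing, GV and MII (limma, Benjamini-Hochberg adjusted p = 0.000275, 0.00595 and 0.0485). These are spike-in-scaled values, and Nlrp4e without the scaling is not given here. The scaling factors at GV were 0.836 and 0.697 in WT and 0.533 and 0.583 in the mutant. At MII they were 0.225 and 0.228 in WT and 0.283 and 0.252 in the mutant. The part of the copy in the Krt8 values was not tested.

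The genes most like Krt8 across the 12 libraries, by Pearson r of log2(FPKM + 1) among 11075 genes, were Ap3b2 (0.985), Sult1c1 (0.983), 6230409E13Rik (0.975), Bhlhb9 (0.972) and Epb4.2 (0.971). Ap3b2, a neuronal adaptor subunit, was at 0.840 and 1.19 FPKM in WT growing and 4.46 and 4.96 in Zar1/2-null growing libraries. Epb4.2, a red cell membrane protein gene, was at 1.82 and 1.46 against 8.51 and 7.65. Krt73 had r = 0.947 and rank 21. Sult1c1 (1.39 and 1.37 FPKM) and Bhlhb9 (3.02 and 2.49) reached 1 FPKM only in the Zar1/2-null growing libraries. They entered only through a group for which Krt8 had been selected as high, so their likeness to it is partly built in. These correlations are a description over libraries that share stage and genotype. Without the spike-in scaling 1 of the 5 genes remained among the first 5. With a pseudocount of 0.1 FPKM 2 of the 5 remained, and Sult1c1 had rank 37.

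Markers of epithelial cells gave another view of the same libraries. Of 18 epithelial markers, 13 were below 1 FPKM in every library, and Cldn3, Pax8, Foxj1 and Msln were listed at 0 in all. Epcam, a defining epithelial marker, reached at most 0.992 FPKM. The summed level was 64.8 to 74.0 FPKM in WT growing, 80.1 to 86.6 in Zar1/2-null growing, 45.02 to 46.9 in WT GV and 27.5 to 39.1 in Zar1/2-null GV libraries. Most of it came from Spint2 and Cldn4, at up to 59.9 and 22.1 FPKM. At MII the sum was 20.4 to 20.5 FPKM in WT and 27.1 to 27.7 in Zar1/2-null libraries. The sum was thus higher in the mutant in growing and MII oocytes and lower at GV. Elf3, of the same list, went the other way in growing oocytes. It was at 3.58 and 5.95 FPKM in WT and 0.675 and 0.468 in Zar1/2-null growing libraries. Of the 5 kept markers, limma called 2 higher and 1 lower in growing, 0 and 2 at GV, and 0 and 0 at MII. The shares of all kept genes were 10.6% and 24.4%, 2.83% and 40.6%, and 21.5% and 10.3%. Without the spike-in scaling the GV sums overlapped (53.8 to 67.3 in WT and 51.6 to 66.95 in the mutant), and those of growing oocytes did not (64.8 to 74.0 and 92.9 to 111). The part of these markers in the Krt8 difference was not tested. Granulosa and cumulus markers (16 of 21 below 1 FPKM) summed to 30.6 to 34.4 FPKM in WT growing and 15.1 to 23.5 in Zar1/2-null growing libraries, with Cyp19a1 and Nr5a2 highest. These 2 moved in opposite directions. The highest Cyp19a1 value was 19.0 FPKM in WT growing and 7.72 in Zar1/2-null growing libraries. The highest Nr5a2 value was 5.97 and 11.5 FPKM in the same order. Immune markers summed to 21.6 to 24.7 against 1.03 to 2.13, nearly all of it C1qb. Stromal, endothelial and red cell markers (10 of 11 below 1 FPKM) summed to 10.4 to 12.2 FPKM in WT growing and 9.36 to 9.66 in Zar1/2-null growing libraries, with Pecam1 highest.

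Other genes of the filament system are given by list, and their counts are to be read beside the shares of all kept genes called higher and lower, which were 10.6% and 24.4% in growing, 2.83% and 40.6% in GV, and 21.5% and 10.3% in MII oocytes. The median log2 difference of all kept genes was -0.16, -0.38 and 0.06. Of 15 intermediate filament genes other than keratins, 8 were kept; 4 were called higher and 2 lower in growing oocytes, 1 higher and 2 lower at GV, and 2 higher and 0 lower at MII (0 lower also at an unadjusted limma p under 0.05). Their median log2 difference was 0.48, -0.08 and 0.19 at the 3 stages. Nefh, a neurofilament subunit, was higher in growing oocytes (4.52 and 5.12 against 1.36 and 0.758 FPKM, log2 difference 1.51, limma adjusted p = 0.000127) and at GV (1.16, limma adjusted p = 0.000605). Prph, the peripheral neuron filament peripherin, was listed at 0 in both WT growing libraries and was at 0.920 and 1.00 FPKM in the mutant. Among the growing libraries it reached the 1 FPKM filter only in Zar1/2-null replicate 2. It is 1 of the 4 called higher, but at the floor of the filter, so its values are given as a description without a p-value. Bfsp1, the lens filament filensin, was lower in growing oocytes (9.05 and 18.4 against 28.7 and 41.7 FPKM, -1.35, limma adjusted p = 0.008) and higher at MII (1.34, limma adjusted p = 0.00802).

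Of 22 desmosomal, plakin and keratin-binding genes, 8 were kept, with 1 higher and 2 lower in growing, 0 higher and 4 lower in GV, and 0 higher and 1 lower in MII oocytes. At an unadjusted limma p under 0.05, 0 were higher at GV and 2 at MII. The median log2 difference was -0.23, -0.49 and -0.10, beside -0.16, -0.38 and 0.06 for all kept genes. Of all kept genes 40.6% were called lower at GV. Pkp2, a desmosomal plaque protein, was the one called higher, in growing oocytes (2.37 and 2.56 against 1.36 and 1.53 FPKM, log2 difference 0.50, limma adjusted p = 0.016). Pnn, a desmosome-associated and nuclear protein, was lower at all 3 stages (-1.05, -1.29 and -1.34, limma adjusted p = 0.00154, 0.000406 and 0.000207). Dsc2, a desmosomal cadherin, was lower at GV (-0.80, limma adjusted p = 0.00281), a call lost without the spike-in scaling (-0.61, limma adjusted p = 0.0584). Tchp, a keratin-binding protein, was lower in growing oocytes (-0.44, limma adjusted p = 0.0262), a call also lost without the scaling (-0.30).

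Of 12 genes for keratin turnover and modification, 11 were kept, with 3 higher and 1 lower in growing, 0 higher and 4 lower in GV, and 2 higher and 2 lower in MII oocytes (0 higher at GV by the unadjusted p also). The corresponding shares of all kept genes were 10.6% and 24.4%, 2.83% and 40.6%, and 21.5% and 10.3%. The median log2 difference was -0.21, -0.34 and -0.05. Stub1, a chaperone-linked ubiquitin ligase, was higher at MII (16.0 and 11.9 against 1.03 and 1.36 FPKM, log2 difference 2.76, limma adjusted p = 2.8e-06). Sfn, the epithelial 14-3-3 sigma protein, was higher in growing oocytes (2.097 and 2.82 against 0.758 and 1.57 FPKM, 0.70, limma adjusted p = 0.0214). Ywhag, a 14-3-3 protein, was lower at GV (13.1 and 11.9 against 43.9 and 43.5 FPKM, -1.73, limma adjusted p = 2.4e-05) and at MII (-0.97, limma adjusted p = 0.000512). Ywhah, another 14-3-3 protein, was lower at MII (-0.94, limma adjusted p = 0.000965). Hspb1, a small heat shock protein, was lower in growing oocytes (6.94 and 2.89 against 11.1 and 12.96 FPKM, -1.23, limma adjusted p = 0.0171), a call lost without the spike-in scaling (-0.99, limma adjusted p = 0.0632).

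Regulators of trophectoderm and epithelial genes, among which are those known to act on Krt8 and Krt18, were also listed. Of 32, 14 were kept; 3 were called higher and 3 lower in growing oocytes, 1 higher and 8 lower at GV, and 2 higher and 1 lower at MII. Of all kept genes, 10.6% and 24.4%, 2.83% and 40.6%, and 21.5% and 10.3% were called higher and lower at these stages. The median log2 difference of the kept regulators was -0.06, -0.54 and -0.17, beside -0.16, -0.38 and 0.06 for all kept genes. Tfap2c, the AP-2 gamma factor of trophectoderm, was higher at each stage. It was at 5.88 and 5.63 FPKM in WT growing and at 14.04 and 16.3 in Zar1/2-null growing libraries, with log2 differences of 1.26, 0.51 and 0.76 at growing, GV and MII (limma, Benjamini-Hochberg adjusted p = 6.9e-05, 0.0111 and 0.00116). Elf3 and Grhl2, epithelial transcription factors, were lower in growing oocytes. Elf3 was at 3.58 and 5.95 FPKM in WT and 0.675 and 0.468 in the mutant (-1.85, limma adjusted p = 0.000654), and Grhl2 at 3.55 and 6.54 against 1.02 and 0.898 (-1.58, limma adjusted p = 0.000441). Sp3 was higher in growing oocytes (0.60, limma adjusted p = 0.0188) and lower at GV (-0.83, limma adjusted p = 0.00288), a GV call lost without the spike-in scaling (-0.61).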

How the data were processed

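RNA of 12 oocyte libraries (6 groups of 2, assigned from the sample titles) was sequenced. The authors cut reads to 50 bp, aligned these to the mm9 genome by TopHat2 2.1.1, kept unique reads, quantified UCSC gene models with Cufflinks 2.2.1, and deposited FPKM multiplied by an ERCC factor (0.225 to 1, recovered here from the values). The library is primed on poly(A), so tail length can affect a level. The study reports total reads for each library, but the table holds no counts, so the counting error of a gene is unknown. Genes with 1 FPKM in 1 library were kept (11502). limma 3.58.1 (R 4.3.3) was fitted to log2(FPKM + 1), 1 term per group, eBayes with trend, with Benjamini-Hochberg adjustment over kept genes (threshold 0.05), and was tested on simulated data. Krt18 and Krt19 missed the filter, so the planned fits for them were replaced by values and a permutation test; unfiltered, limma gave Krt18 adjusted p = 0.361, 1 and 1 at the 3 stages. The members and gene lists were chosen with earlier results of these data known. Named genes were the members, targets, keratins with a group mean of 1 FPKM, per other list at most 2 called genes per stage and direction by size, and the 5 genes most like Krt8. The 2 highest markers were named for the epithelial list and for the granulosa and cumulus list. Only the highest was named for the immune list and for the stromal, endothelial and red cell list, and no oocyte marker was named. Eif4b, Nlrp4e, Epcam, Elf3 as an epithelial marker, and the keratins and markers listed at 0 were named after their values were seen. Genes most like Krt18 were not sought, given its level. Sequences were matched to mm9 with Python 3.11.15.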

Additional observations from a re-analysis of the deposited data

Results flagged for a closer look

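Among the keratins, the difference between genotypes itself differed between stages in 6 cases by the interaction term of the limma fit. For Krt73 the difference at GV minus that in growing oocytes was -1.20 (log2; Benjamini-Hochberg adjusted p = 0.00543); with median scaling it was -0.74 and no longer passed (adjusted p = 0.0746). The difference at MII minus that at GV was 2.39 for Krt12 (limma adjusted p = 9.3e-05), 1.51 for Krt76 (0.00101), 1.14 for Krt10 (0.0206), 0.96 for Krt79 (0.0382) and 0.67 for Krt84 (0.0377). Of all 11502 kept genes, limma called 297 higher and 1301 lower for GV minus growing, and 3903 higher and 74 lower for MII minus GV. The median of the MII minus GV contrast over all kept genes was 0.48. The MII minus GV differences of Krt10, Krt79 and Krt84 no longer passed without the spike-in scaling (0.94, 1.33 and 0.08) or without single GV or MII libraries. Groups of 2 libraries allowed no check for an outlying sample.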

How the results depend on the processing

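Krt8 at MII (0.79) passed the threshold without the spike-in scaling (1.65), with median scaling (1.62), with a pseudocount of 0.1 FPKM (2.45) and in a fit of the 4 MII libraries alone (0.79, limma adjusted p = 0.0119). Krt8 in growing oocytes moved from 4.11 to 4.39 without the scaling and 4.40 with the smaller pseudocount. Of the counts of keratins, those lower in growing oocytes went from 3 to 1 when only genes averaging 5 FPKM or more entered. At GV those higher went from 2 to 1 without a filter, at that mean, and over single libraries left out (1 to 2), and those lower from 2 to 1 without the scaling, with median scaling, at that mean, and over single libraries left out (1 to 2). At MII those higher went from 4 to 2 at that mean, and over single libraries left out (2 to 4). The cause of these moves was not tested, beyond fewer genes or libraries entering the fit. The change of the Krt84 difference from GV to MII reversed with median scaling (-0.17). The mean difference of Krt18 kept its sign in each alternative (-0.30 to -0.01). Of 252 alternative values with a test, 204 kept direction and side of the threshold, 43 no longer passed it, 4 newly passed it and 1 reversed. Of 72 alternative counts of keratins, 59 stayed within 1.5 times the reported one. The deviations of samples with the same replicate number correlated weakly (r of -0.12 to 0.16 over 15 pairs of groups, 13 of them above 0 and 4 over 0.1). Pairing of the samples by number was therefore not established. Both WT growing libraries had a scaling factor of 1, although the study lists different spike-in shares for them. The authors' scaling thus appears to take the WT growing library of the same number as its reference. With the number as a replicate block Krt8 at MII kept its value of 0.79 (limma adjusted p = 0.0956), and no keratin call changed; over all genes the calls lower in growing oocytes went from 2801 to 2989 and those lower at GV from 4666 to 4924. Limits by reads per gene are not given, since the table holds no counts, and values near 0 FPKM, such as those of Krt18, resolve no difference.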
